A study of Mus musculus with 140 samples.

Results

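The clusters described here are the stretches of RNA crosslinked to TDP-43 that lie in introns shorter than 100 kb of protein-coding genes in the mouse brain. A cluster was counted when its midpoint lay, on the same strand, in no annotated exon but in an intron under 100 kb, with an intron taken as a gap between the merged exons of all transcripts of the gene. Across 32 TDP-43 eCLIP libraries, 1185724 of 6330512 listed clusters (18.7%) met this rule, out of 13235198 clusters in the 70 lists of the series. A further 473150 lay in longer introns and 4567855 in exons. The intronic clusters fell in 14507 genes with 175286 introns under 100 kb.

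The libraries came from cortex and striatum of 3-month-old R6/2 mice, line B6CBA-Tg(HDexon1)62Gpb/3J, and of non-transgenic (NT) mice, with 4 males and 4 females for each region and genotype. R6/2 mice carry a transgene for a mutant first exon of human huntingtin and are a rapidly progressing model of Huntington's disease (HD), so that only this fragment, and not the full mutant protein, is made from the transgene. Pulverized tissue was UV-crosslinked and precipitated with an antibody against TDP-43, and each library (IP) was scored against its own input library. The tissue is a mixture of all cell types, so that fewer cells of a type and less RNA per cell cannot be told apart in what follows.

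TDP-43 is a mostly nuclear RNA-binding protein of the hnRNP family that recognizes UG-rich sequence through its paired RNA recognition motifs. It is known to bind introns of long neuronal pre-mRNAs, to regulate splicing of nearby exons and to repress inclusion of unannotated exons, and its loss from the nucleus is a hallmark of several neurodegenerative diseases. Introns are removed in splicing, so an intronic cluster points to unspliced RNA unless it lies in an exon or retained intron that the annotation lacks.

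The labelled regions were checked against cell type markers. In NT mice the 32 medium spiny neuron markers, which mark the principal neurons of the striatum, held between 378 and 479 exonic clusters per 100000 listed in striatum and between 216 and 284 in cortex, and the 20 cortical excitatory neuron markers held between 179 and 212 in cortex and between 132 and 171 in striatum. In R6/2 mice the medium spiny neuron markers held between 210 and 320 in striatum and between 174 and 220 in cortex, below every NT library of striatum and with some overlap in cortex. Median exonic clusters in striatum were also lower in R6/2 for cortical excitatory neuron (148 in NT, 112 in R6/2) and GABA interneuron markers (127, 90.5). The same held for astrocyte (120, 86.4) and oligodendrocyte markers (99.3, 79.6), and less so for microglia (16.1, 15.5) and vascular markers (27.8, 27.1). The listed clusters include intronic ones, whose share was higher in R6/2 striatum, as given below. Its part in these falls was not tested. The 11 microglia markers were low everywhere (10.8 to 24.4). No marker of these lists was without an exonic cluster in a whole group, except 1 of the medium spiny neuron markers in R6/2 cortex and 1 of 14 GABA interneuron markers in R6/2 striatum.

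Intronic clusters that recurred in every library are shown in 2 sets. A cluster was called enriched when its p over input was 0.001 or less. The first set holds windows that reach 50 bases to each side of the midpoint of intronic stretches enriched in all 32 libraries, printed 5′ to 3′ on the transcript strand of GRCm38, the assembly behind mm10. They are in DNA letters with each TGTGT in capitals, which in RNA reads as UGUGU.

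Fnbp1l, chr3:122619442-122619542 (-): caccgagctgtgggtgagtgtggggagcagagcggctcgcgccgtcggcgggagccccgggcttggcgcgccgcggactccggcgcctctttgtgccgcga
Asap3, chr4:136213431-136213531 (+): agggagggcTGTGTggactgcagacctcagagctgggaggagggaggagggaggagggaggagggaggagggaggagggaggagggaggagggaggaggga
Pdgfra, chr5:75156702-75156802 (+): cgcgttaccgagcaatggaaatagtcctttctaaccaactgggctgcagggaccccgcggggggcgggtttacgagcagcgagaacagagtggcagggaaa
Trrap, chr5:144771375-144771475 (+): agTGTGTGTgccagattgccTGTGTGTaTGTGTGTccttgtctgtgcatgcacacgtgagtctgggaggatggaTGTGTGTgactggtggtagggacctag

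Fnbp1l encodes a membrane-bending adaptor, Asap3 an Arf GTPase-activating protein, Pdgfra the receptor that marks oligodendrocyte precursors and Trrap a scaffold of histone acetyltransferase complexes. The Fnbp1l stretch lay in intron 1 of 14, Asap3 in intron 1 of 24, Pdgfra in intron 4 of 26 and Trrap in intron 3 of 70, where 8 UGUGU matches lay in the window. Over the 32 libraries these stretches had clearly positive folds. The log2 fold of IP over input at Fnbp1l had a median of 4.57 (3.25 to 5.56) in NT cortex, 3.49 (2.04 to 5.31) in R6/2 cortex, 6.78 (5.67 to 7.53) in NT striatum and 5.46 (3.09 to 6.33) in R6/2 striatum. Medians at Pdgfra lay between 4.85 and 5.88 and those at Trrap between 2.16 and 2.84 in the 4 groups. Of these 4 windows, Trrap and Asap3 held UGUGU and the other two did not. Stretches of Cdk8 (intron 2 of 12) and Peak1 (intron 7 of 7) were also enriched in all 32 libraries, with −log10 p values that reached the limit of 400. Their windows were not compared with ribosomal RNA, for which no sequence was used here.

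The windows of the second set were picked for their long UG runs, out of stretches that were listed as clusters in all 32 libraries and enriched over input in none of them.

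Atp5s, chr12:69733415-69733515 (+): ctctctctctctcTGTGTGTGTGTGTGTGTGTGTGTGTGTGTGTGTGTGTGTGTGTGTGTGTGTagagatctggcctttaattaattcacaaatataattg
Slc25a12, chr2:71300882-71300982 (-): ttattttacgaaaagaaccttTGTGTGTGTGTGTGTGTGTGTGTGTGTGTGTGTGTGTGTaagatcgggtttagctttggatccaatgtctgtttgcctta
Col9a1, chr1:24197495-24197595 (+): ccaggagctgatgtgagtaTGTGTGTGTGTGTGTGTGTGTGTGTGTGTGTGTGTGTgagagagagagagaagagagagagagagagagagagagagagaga
1810013L24Rik, chr16:8850072-8850172 (+): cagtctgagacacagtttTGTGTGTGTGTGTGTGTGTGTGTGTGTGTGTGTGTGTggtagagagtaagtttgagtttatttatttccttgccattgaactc

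Atp5s lay in intron 1 of 4, Slc25a12 in intron 12 of 21, Col9a1 in intron 11 of 38 and 1810013L24Rik in intron 3 of 3. None reached the p for enrichment in any library. At Atp5s, a gene for a factor of mitochondrial ATP synthase, the median log2 fold was −0.69 (−1.20 to 0.41) in NT cortex and −1.48 (−2.33 to 2.83) in NT striatum. At Slc25a12, the mitochondrial aspartate-glutamate carrier, it was 1.70 (0.64 to 2.15) in NT cortex and 0.48 (0.06 to 3.09) in NT striatum. In all, 365 stretches were listed in all 32 libraries. UGUGU lay in such windows of 41.2% of the 85 that were enriched in none and of 14.0% of the 136 that were enriched in 16 or more, a description of stretches chosen by these same folds. Most of the 85 thus held no UGUGU, unlike the windows printed here.

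Few of the intronic clusters passed the test over input. Of the 1185724, 13709 (1.16%) were enriched, compared with 0.269% in longer introns, 15.3% in coding sequence and 26.1% in 3′ UTRs. They made up 1.65% of the 832516 enriched TDP-43 clusters. In NT cortex the number of intronic clusters per library ranged from 23388 to 41469 (median 32748), and in R6/2 cortex from 32269 to 57600 (median 40128). In NT striatum it ranged from 16801 to 31406 (median 20329) and in R6/2 striatum from 22193 to 81693 (median 56242). R6/2 striatum thus held the highest counts and the widest spread. By an exact permutation test of genotype within sex (4900 labelings, two-sided, adjusted over 150 library tests), the difference in number was below the threshold in striatum (p = 0.000408, the smallest these labelings can give, adjusted p = 0.00612) and missed it in cortex (exact permutation p = 0.018, adjusted p = 0.0728). Nothing in the labels states that the libraries were more than separate samples of their group, so these p-values measure the spread between the samples as deposited.

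**Figure D1:**
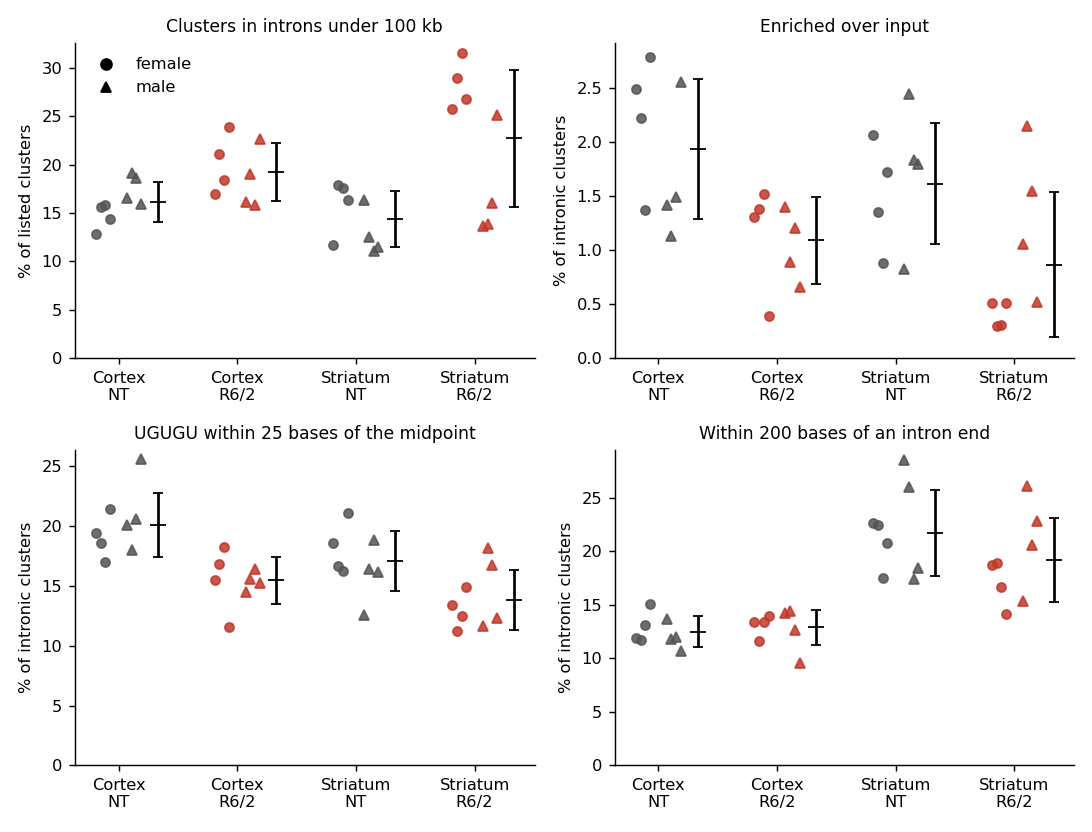
Values of each TDP-43 library by region and genotype (grey, NT; red, R6/2; circles, females; triangles, males; bars, mean ± SD over 8 libraries): intronic clusters as a share of listed clusters, the enriched share of intronic clusters, the share with UGUGU in the central 51 bases and the share within 200 bases of a splice site, all in percent. The R6/2 striatum libraries span 13.7% to 31.6% in the intronic share, and the splice-site share of NT striatum lies above that of NT cortex in every library.

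Because libraries differed in the total number of clusters (133185 to 260687), the intronic clusters were also taken as a share of all listed clusters. In NT striatum this share had a mean of 14.4% ± 2.93 (SD, n = 8), from 11.1% to 17.9% with a median of 14.4%. In R6/2 striatum it was 22.7% ± 7.11 (SD, n = 8), from 13.7% to 31.6% with a median of 25.4%. The 4 R6/2 females (25.8% to 31.6%) and male 4 (25.1%) lay above every NT library, whereas the other R6/2 males (13.7% to 16%) lay within the NT range. The difference was 8.35 percentage points (SE 2.72, exact permutation p = 0.00245, adjusted p = 0.0175). With the 4 males alone it was 4.30 points and with the females alone 12.4 points, and neither passed the threshold after adjustment in a design whose smallest p is 0.0286. No difference of the genotype effect between females and males passed adjustment (lowest adjusted p = 0.151).

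Cortex moved less. The share was 16.1% ± 2.06 in NT (12.8% to 19.1%, median 15.9%) and 19.2% ± 3.03 in R6/2 (15.8% to 23.9%, median 18.7%, n = 8 each), and the difference of 3.13 points did not pass (adjusted p = 0.121, exact permutation). The genotypes overlapped. Between the regions of NT mice the share was 1.74 points higher in cortex (adjusted p = 0.314) and in R6/2 mice 3.47 points lower (adjusted p = 0.262, exact permutation tests). Longer introns followed the same order in striatum, where their share of listed clusters rose from 4.60% to 8.69% (adjusted p = 0.0175), while in cortex it was 6.97% and 8.19% (adjusted p = 0.201). In NT mice 3.24 clusters lay in introns under 100 kb for each 1 in a longer intron in striatum and 2.33 in cortex (adjusted p = 0.0108, exact permutation).

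The enriched clusters did not increase with the listed ones. In cortex the enriched intronic clusters numbered between 446 and 850 in NT libraries (median 575) and between 226 and 678 in R6/2 libraries (median 429, adjusted p = 0.141). In striatum they numbered between 179 and 473 (median 346) and between 185 and 478 (median 293.5), which overlapped almost fully. As a share of the intronic clusters, enrichment fell in R6/2 cortex from 1.94% ± 0.650 (1.13% to 2.79%, median 1.86%) to 1.09% ± 0.403 (0.392% to 1.52%, median 1.26%, n = 8 each). That difference of −0.84 points had an exact permutation p of 0.00694 (adjusted p = 0.0336), and it did not pass when any of NT females 1, 2 or 4 (−0.76, −0.80 and −0.72 points) or R6/2 males 2, 3 or 4 (−0.81, −0.86 and −0.78 points) was left out. In striatum the share was 1.62% ± 0.564 in NT (0.822% to 2.45%, median 1.76%) and 0.866% ± 0.673 in R6/2 (0.299% to 2.15%, median 0.518%, adjusted p = 0.0854). It passed without NT male 1 (−0.87 points) or R6/2 male 2 (−0.94 points), and at p of 1e-10 or less for enrichment (−0.28 points, adjusted p = 0.0245). The enriched share of exonic clusters was 25.5% in NT and 19.9% in R6/2 cortex (adjusted p = 0.188) and 13.6% and 11.1% in striatum (adjusted p = 0.448).

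Regions differed more clearly in enrichment of exons than of introns. In NT mice 25.5% of exonic clusters were enriched in cortex and 13.6% in striatum, with no overlap between regions (adjusted p = 0.00612), whereas for intronic clusters the values were 1.94% and 1.62% (adjusted p = 0.448, exact permutation). As a share of all enriched clusters the intronic ones made up 1.54% in NT cortex, 2.15% in NT striatum, 1.40% in R6/2 cortex and 2.18% in R6/2 striatum, and striatum was higher in both genotypes (adjusted p = 0.0259 and 0.00612, exact permutation). Most intronic clusters were seen in a single library of their group, from 51.3% in R6/2 striatum to 57.2% in NT striatum, and about as many in every group (15.1% to 15.7%) overlapped a cluster in at least 4 of the 7 other libraries. Enriched clusters were the reverse. Between 89.7% and 91.7% of them overlapped a listed cluster in at least 4 of the 7 others.

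UG-rich sequence, the known recognition element of TDP-43, was next counted on the transcript strand in the 51 bases around each midpoint. The pentamer UGUGU lay in 20.1% ± 2.66 of intronic clusters in NT cortex (17.0% to 25.7%, median 19.8%) and in 17.1% ± 2.52 in NT striatum (12.6% to 21.1%, median 16.6%, n = 8 each). In windows 500 bases away it lay in 10.8% and 10.5%, and in exonic clusters in 6.77% and 6.87%. Repeats of 6 UGs lay in 6.99% and 5.57% of intronic clusters. Among the other pentamers counted, UCUCU, the run UUUUU and the alternating UAUAU were below their level 500 bases away in every group mean, and ACACA, the reverse complement of a UG run, was near it.

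In R6/2 cortex UGUGU was less frequent, at 15.5% ± 1.95 (11.6% to 18.3%, median 15.6%, n = 8). The difference of −4.63 points (SE 1.17, exact permutation p = 0.000816, adjusted p = 0.00816) was larger than the spread, although the highest R6/2 library overlapped the lowest NT libraries. Repeats of 6 UGs fell from 6.99% to 4.60% (adjusted p = 0.00816), and UGUGU in clusters without such a repeat from 13.1% to 10.9% (adjusted p = 0.0195). In windows 500 bases away UGUGU also fell, from 10.8% to 10.3% (adjusted p = 0.0296). Soft-masked repeat sequence at the midpoint moved with it, from 30.6% of intronic clusters in NT cortex to 26.7% in R6/2 cortex with no overlap (adjusted p = 0.00612, exact permutation), and its part in the UGUGU difference was not tested. In striatum UGUGU had values of 17.1% in NT and 13.9% ± 2.51 in R6/2 (11.2% to 18.2%, median 12.9%, adjusted p = 0.112), which passed without NT male 1 (−3.87 points) or R6/2 male 2 (−3.83 points). There UGUGU outside longer repeats fell from 11.5% to 9.66% (adjusted p = 0.0295), and repeat sequence was at 28.0% and 28.5% (adjusted p = 0.812).

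**Figure D2:**
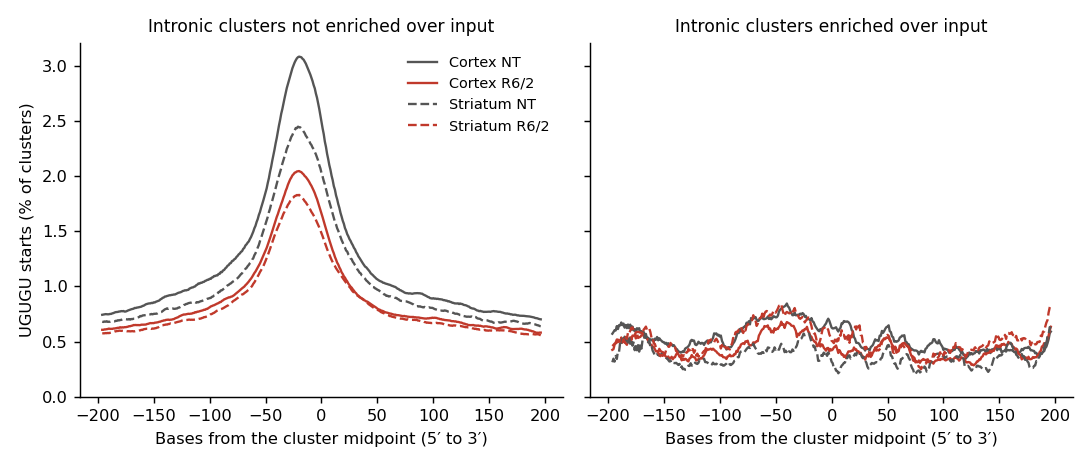
Share of intronic clusters (percent, running mean over 9 bases) in which UGUGU starts at each position from 200 bases upstream to 200 bases downstream of the midpoint, for clusters not enriched and enriched over input (solid, cortex; dashed, striatum; grey, NT; red, R6/2). The profiles of clusters that were not enriched peak just upstream of the midpoint, with NT cortex highest and R6/2 striatum lowest, and the profiles of enriched clusters have no such peak.

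The UG signal sat in clusters that were not enriched over input. In these, UGUGU starts peaked 22 bases upstream of the midpoint in NT cortex, at 3.11% of clusters. The mean over the central 10 bases to either side was 3.24 times that at 150 to 200 bases away in NT cortex, 2.65 times in R6/2 cortex, 2.93 times in NT striatum and 2.50 times in R6/2 striatum. For enriched clusters the same ratios were 1.23, 0.887, 0.694 and 0.993. UGUGU lay in 12.9% of enriched intronic clusters of NT cortex and 8.02% of those of NT striatum (adjusted p = 0.0335), against 9.66% and 8.68% in windows 500 bases away, and the difference between genotypes did not pass in either region (adjusted p = 0.202 in cortex and 0.142 in striatum, exact permutation). Across folds UGUGU was least frequent at the highest ones. In NT striatum UGUGU lay in 23.5% ± 4.30 of the clusters with a log2 fold between −2 and −1 and in 3.11% ± 2.06 of those above 4, and in NT cortex in 22.9% ± 2.88 and 10.8% ± 4.84 (SD, n = 8). The fall was not steady in NT cortex. There UGUGU lay in 19.6% to 22.1% of clusters in the bins from −1 to 3, against 10.7% to 11.3% in windows 500 bases away. At −2 or less it lay in 14.9%. ACACA lay in 25.2% to 32.7% of clusters with a log2 fold of −2 or less, against 7.85% to 8.50% in windows 500 bases away.

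**Figure D3:**
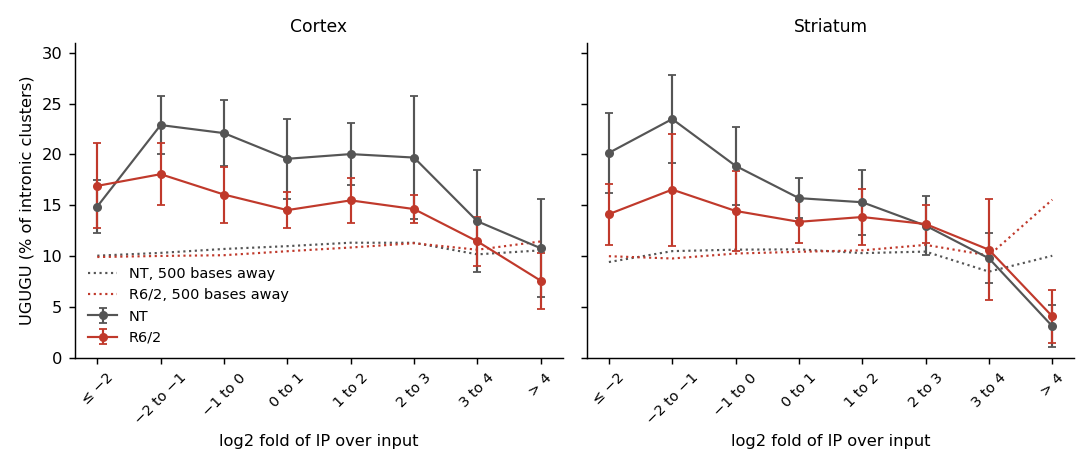
UGUGU in the central 51 bases (percent of intronic clusters, mean ± SD over 8 libraries) by the log2 fold of IP over input, for cortex and striatum (grey, NT; red, R6/2), with windows 500 bases away as dotted lines. In NT cortex the share is 14.9% at −2 or less, 22.9% between −2 and −1 and 19.6% to 22.1% in the bins from −1 to 3. It is 13.4% between 3 and 4 and 10.8% above 4. NT lies above R6/2 in most bins.

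Recurrent clusters carried UGUGU more often than clusters seen in a single library. Among those found in at least 4 of the 7 other libraries of their group it lay in 31.2% in NT cortex, 21.8% in R6/2 cortex, 23.0% in NT striatum and 18.6% in R6/2 striatum. Among those found in no other library it lay in 14.6%, 12.5%, 13.9% and 11.7%. These are descriptions, since recurrence and sequence were read from the same clusters.

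For all intronic clusters, nearness to a splice site separated the regions, while its differences between genotypes did not pass. The share of intronic clusters within 200 bases of a splice site was 12.5% ± 1.41 in NT cortex (10.7% to 15.1%, median 12.0%) and 21.7% ± 4.02 in NT striatum (17.5% to 28.5%, median 21.6%, n = 8 each), against 8.41% of all bases of these introns. Every NT striatum library lay above every NT cortex library (difference −9.22 points for cortex minus striatum, exact permutation p = 0.000408, the smallest possible, adjusted p = 0.00612). Both intron ends took part. The 5′ end held 8.09% in cortex and 13.8% in striatum and the 3′ end 6.03% and 11%, again with no overlap (adjusted p = 0.00612 for each). In R6/2 mice the same share was 12.9% ± 1.63 in cortex (9.55% to 14.4%, median 13.4%) and 19.2% ± 3.96 in striatum (14.2% to 26.1%, median 18.8%), a difference of −6.30 points (adjusted p = 0.00612). The genotypes did not pass in cortex (0.38 points, adjusted p = 0.737) or striatum (−2.54 points, adjusted p = 0.314, exact permutation).

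Enriched intronic clusters were found near splice sites more often still, at 36.5% in NT and 42.3% in R6/2 cortex (adjusted p = 0.112) and at 43.6% in NT and 52.9% in R6/2 striatum (difference 9.34 points, adjusted p = 0.0259, exact permutation). RefSeq, a separate annotation, placed an exon at 8.49% of intronic clusters and 39.7% of enriched ones in NT cortex, and at 8.77% and 31.4% in NT striatum. An exon on the opposite strand lay at 1.18% to 1.34% of intronic clusters and at 2.08% to 2.80% of enriched ones.

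**Figure D4:**
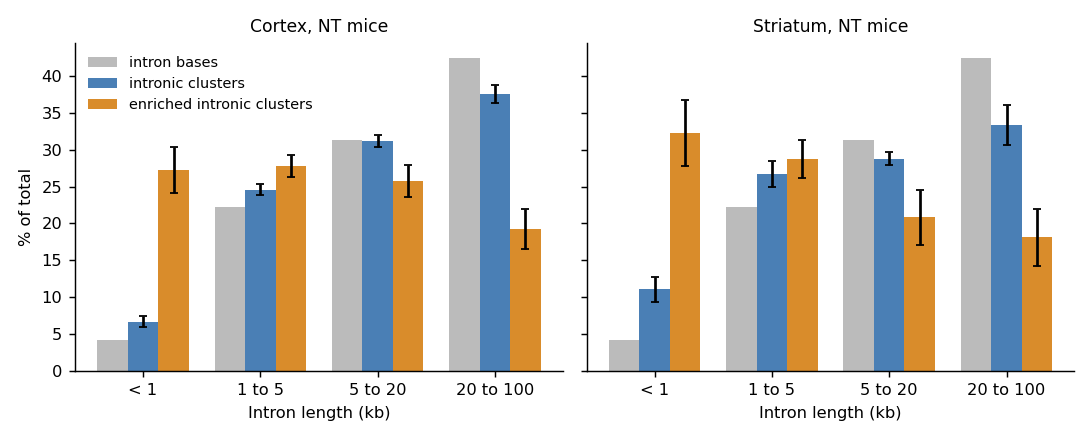
Share (percent) of the bases of introns under 100 kb, of intronic clusters and of enriched intronic clusters by intron length in NT mice, with bars of clusters as mean ± SD over 8 libraries. Introns under 1 kb hold 4.12% of the bases, 6.67% of cortical and 11.1% of striatal intronic clusters, and 27.3% and 32.3% of the enriched ones.

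Short introns held more clusters than their length. Introns under 1 kb made up 4.12% of the bases but 6.67% of intronic clusters in NT cortex and 11.1% in NT striatum, and 27.3% and 32.3% of the enriched ones. Of the clusters in them, 7.75% were enriched in NT cortex and 4.87% in NT striatum, against 1.02% and 0.870% in introns of 20 to 100 kb. The median length of the intron around a cluster was 11509 bases in NT cortex and 8972 bases in NT striatum, with no overlap between libraries (adjusted p = 0.00612, exact permutation). R6/2 libraries reached more genes: 8579 against 6383 genes with an intronic cluster in striatum (adjusted p = 0.00612) and 7794 against 6872 in cortex (adjusted p = 0.0255). These numbers were not scaled to the number of intronic clusters, which was itself higher in R6/2, so they are not a separate result. In striatum the share in the first intron of the gene fell from 16.2% to 14.7% (adjusted p = 0.0175), and the median cluster width rose from 35.4 to 40.1 bases (adjusted p = 0.0468).

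Intronic clusters were next counted per gene. In NT cortex Rbfox3, the neuronal splicing factor NeuN, held the most (129 per library, 97 to 166), and Kalrn, Dlgap1, Celf2 and Anks1b were among those that came next. In NT striatum Pde10a, a cyclic nucleotide phosphodiesterase of medium spiny neurons, held 129 (93 to 190) and Phactr1, a regulator of protein phosphatase 1 and actin, 111, followed by Rbfox3, Anks1b, Celf2 and Klhl29. The order of enriched clusters was another: Prkcb, a protein kinase C, led with 21.4 per library in NT cortex and 17.3 in NT striatum, and Clstn2 and Nos1ap came next in cortex and Tnk2 in striatum. The most widely enriched sites of Prkcb (intron 19 of 19) and Nos1ap (intron 13 of 13) lay in a RefSeq exon, and that of Tnk2 did not. How many enriched clusters of each gene lay in such exons was not counted. Per length, genes with a mean of at least 5 intronic clusters had a median of 8.80 per 100 kb of intron in NT cortex and 7.12 in NT striatum. For Pde10a in NT striatum this was 59.2 and for Rbfox3 in NT cortex 31.

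Intronic clusters per gene were then compared after division by median-ratio size factors, which take out a shift shared by most genes, with limma on log2 values with 1 added. All changes below are on that scale, R6/2 minus NT with the standard error (SE) and the adjusted p, unless stated otherwise. In striatum 307 of 1724 genes tested passed (17.8%), 187 higher (10.8%) and 120 lower (6.96%), and the 2 groups of 8 did not overlap for 32 genes (1.86%). Genes were kept by their unnormalized mean over both genotypes, so some entered through the R6/2 libraries alone. A mean of at least 5 was reached by 956 genes in NT and 2505 in R6/2 striatum. The balance of rises and falls depended on this filter. With a mean of at least 10, 94 of 698 genes were higher and 103 lower, and with at least 2, 331 of 4373 and 97. In cortex 129 of 1804 passed (7.15%), 57 higher (3.16%) and 72 lower (3.99%), and 13 did not overlap (0.721%). Scaling by all listed clusters of a library instead put the median of all genes at a log2 change of 0.65 in striatum and 0.24 in cortex, so the changes are relative to the other genes of the same introns. Under that scaling 739 genes passed in striatum (724 higher and 15 lower), and 109 of the 120 lower genes kept their sign. Without the 5 R6/2 striatum libraries with the high intronic share, 10 of 1008 genes passed, and 205 of the 209 called genes that could still be tested had the same sign. In cortex 72 passed without R6/2 female 2 and 71 without R6/2 female 4.

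Several genes fell in every R6/2 library of striatum. Gsg1l, an auxiliary subunit of AMPA receptors, had between 12.7 and 42.5 normalized intronic clusters in NT striatum (median 34.0) and between 1.11 and 10.5 in R6/2 (median 5.67), without overlap (log2 change −2.37 ± 0.311 SE, limma adjusted p = 1.42e-05). Grm4, a metabotropic glutamate receptor, had 18.3 to 38.5 in NT (median 33.4) and 6.56 to 14.9 in R6/2 (median 11.7), also without overlap (−1.43 ± 0.179, adjusted p = 1.08e-05). Pde10a had 125 to 221 in NT (median 175) and 63.7 to 94.0 in R6/2 (median 73.8, −1.20 ± 0.115, adjusted p = 8.94e-08). Before normalization Pde10a had 93 to 190 in NT and 54 to 172 in R6/2, so its decrease is one relative to the rise in most other genes. In each of these genes every R6/2 library lay below every NT library, and so it did for Phactr1 (120 to 168, median 147, against 54.4 to 92.9, median 84.6, −0.91 ± 0.119, adjusted p = 1.42e-05). Before normalization the mean of Phactr1 was 111 in NT (74 to 169) and 125 in R6/2 (58 to 182), so its decrease too is one relative to other genes, and its unnormalized mean was higher in R6/2. Kcnip3, a calcium-binding partner of Kv4 channels, had 10.1 to 23.3 in NT (median 16.5) and 3.34 to 8.74 in R6/2 (median 5.24, −1.37 ± 0.222, adjusted p = 0.000238).

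Other genes that fell overlapped between genotypes. Impact, an inhibitor of the GCN2 stress kinase pathway, went from 17.2 to 48.7 (median 35.1) in NT to 5.18 to 25.1 (median 8.71) in R6/2 striatum (−1.48 ± 0.223, adjusted p = 0.000111). Npas2, a circadian transcription factor, had a median of 30.2 (20.1 to 55.1) and 13.4 (1.39 to 22.0) in NT and R6/2 (−1.46 ± 0.313, adjusted p = 0.00321). Adra1a, an adrenergic receptor, had medians of 15.7 (10.1 to 41.6) and 6.67 (1.49 to 17.5, −1.36 ± 0.323, adjusted p = 0.0068). The changes of Impact and Adra1a came mainly from a single intron. Intron 2 of Impact, 11.9 kb long and 37.3% of its intron bases, held 80.9% of the difference (28.8 clusters in NT and 11.4 in R6/2), and intron 4 of Adra1a, with 29.2% of the bases, held 88.0% (17.0 and 6.16). In Gsg1l and Grm4 the intron with the largest change held 27.6% and 32.8% of the difference.

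Among the genes that rose in striatum, Ppp2r2c, a regulatory subunit of protein phosphatase 2A, went from 0 to 6.08 normalized intronic clusters (median 3.10) in NT to 6.56 to 18.2 (median 10.3) in R6/2 (1.93 ± 0.416, adjusted p = 0.00321). Its intron 1, 54.1 kb long and 65.9% of its intron bases, held 94.3% of the difference. Garnl3, a protein with a GTPase-activating domain, went from 1.68 to 10.1 (median 5.18) to 11.5 to 22.4 (median 16, 1.59 ± 0.247, adjusted p = 0.000129), and its intron 13, with 5.00% of the intron bases, held 35.7% of the difference. Tnr, the extracellular matrix protein tenascin-R, went from 1.52 to 9.04 (median 5.78) to 9.75 to 23.7 (median 16.3, 1.42 ± 0.249, adjusted p = 0.000637). Mgat4c, a glycosyltransferase, went from 9.11 to 15.3 (median 11.6) to 15.6 to 58.2 (median 36.7, 1.43 ± 0.219, adjusted p = 0.000116). In these 4 genes the genotypes did not overlap. Itpr1, the calcium release channel of the endoplasmic reticulum, rose by 1.77 ± 0.413 (adjusted p = 0.00582) from a median of 3.91 (0 to 24.3) to 16.2 (7.80 to 19.6), and Nxpe4 by 1.44 ± 0.351 (adjusted p = 0.00758), both with overlap. The NT medians of Ppp2r2c, Garnl3, Tnr and Itpr1 lay below the mean of 10 that naming needed, which these genes reached through the R6/2 libraries. Their rises and lack of overlap are thus descriptions of genes picked in this way.

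**Figure D5:**
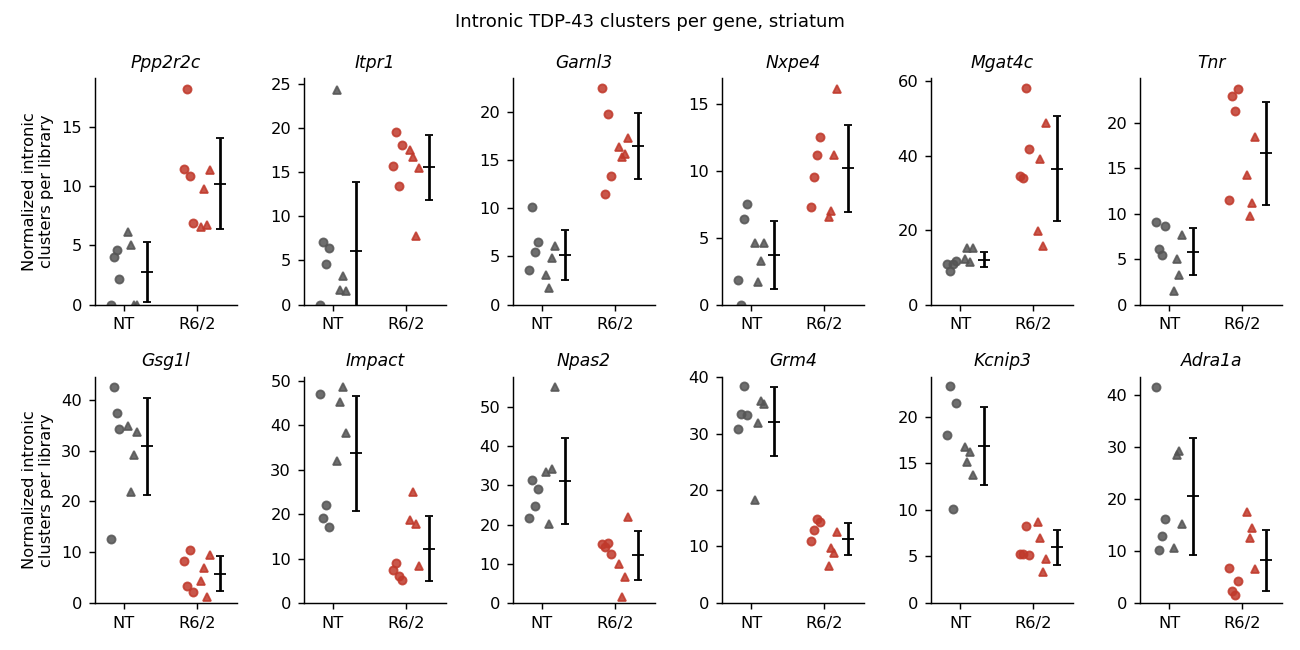
Normalized intronic TDP-43 clusters per library of 12 genes in striatum of NT and R6/2 mice (circles, females; triangles, males; bars, mean ± SD over 8 libraries), the 6 highest and the 6 lowest changes by the rule for named genes. Ppp2r2c, Garnl3, Mgat4c and Tnr are higher and Gsg1l, Grm4 and Kcnip3 lower in every R6/2 library than in any NT library.

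The gene lists were read against the shares over all genes tested in striatum, where 10.8% were higher, 6.96% were lower and the median log2 change was 0.15. Of 14 medium spiny neuron markers tested, 4 fell (Pde10a, Phactr1, Rgs9 and Ano3), 1 rose (Arpp21) and 9 did not pass (median −0.28). Of 45 genes of an HD signature that go down in striatum of other HD mouse data, a list the study itself uses, 11 fell, among them Shank3, a postsynaptic scaffold (−1.21 ± 0.239, adjusted p = 0.00157), 5 rose (Itpr1, Arpp21, Ppp3ca, Atp2b1 and Chn1) and 29 did not pass (median −0.50). Of 71 genes that go up in that signature, 5 had enough clusters to be tested and 3 of these rose. For 2 of them, Brinp3 (2.18 ± 0.411, adjusted p = 0.00141) and Fam126a (2.07 ± 0.444, adjusted p = 0.00321), no R6/2 library overlapped NT. Genes of this list could enter through the R6/2 libraries alone, so these rises are descriptions of the few genes that did. The exonic clusters of the 32 medium spiny neuron markers were lower in R6/2 striatum, as were those of other cell type lists, given above. Intronic clusters of the medium spiny neuron markers per 100000 listed had a median of 307 in NT (222 to 423) and 367 in R6/2 (207 to 496), with overlap. The part of the marker level in the intronic changes was not tested.

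Synaptic adhesion and scaffold genes went both ways in striatum. Of 29 tested, 5 rose, among them Dlgap1, Magi2, Ctnnd2 and Rims2, and 3 fell, among them Shank3 and Ptprs, with a median of 0.21. Dlgap1, a postsynaptic density protein, went from a median of 20.8 (5.42 to 35.7) to 39.5 (26.2 to 52.6, 1.15 ± 0.258, adjusted p = 0.0047). Of 20 voltage-gated channels 1 fell (Kcnc1, −0.79 ± 0.195, adjusted p = 0.00815). Of 16 glutamate receptors 2 fell, Grm4 and Gria3, and the change of Gria3 (−0.44 ± 0.153, adjusted p = 0.0463) turned to 0.15 under scaling by all listed clusters. Of 6 known splicing targets of TDP-43 1 fell, the Kv4 channel partner Kcnip2 (−0.97 ± 0.253, adjusted p = 0.0105), from a median of 9.07 (5.49 to 16.7) to 4.77 (2.19 to 5.74). Of the other cell type lists, 1 of 5 cortical excitatory neuron genes rose (Foxp2), 1 of 5 GABA interneuron genes fell (Kcnc1), and among 3 astrocyte genes Slc1a3 rose and Slc4a4 fell (−0.57, turning to 0.02 under the other scaling), while the single oligodendrocyte and vascular genes and the single gene of the list with detained introns did not pass and no microglia gene had enough clusters to be tested.

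In cortex the highest change was that of Tcf20, a transcriptional coregulator. It had between 1.02 and 7.67 normalized intronic clusters in NT (median 3.51) and between 14.0 and 25.4 in R6/2 (median 19.0), without overlap (2.25 ± 0.262, limma adjusted p = 4.3e-06), and the intron with the largest change held 33.1% of the difference. Cntn6, a neuronal adhesion molecule, rose by 1.23 ± 0.233 (adjusted p = 0.00477) from a median of 5.39 (2.34 to 8.77) to 14.1 (6.59 to 18.5), and its intron 8, with 10.8% of the bases, held 78.5% of the difference. The NT medians of Tcf20 and Cntn6 too lay below the mean of 10 that naming needed, which both reached through the R6/2 libraries. Dync1i1, Setbp1, Sema6a and Pid1 rose by 1.05 to 1.21. Gsg1l fell in cortex too, from a median of 14.2 (11.2 to 21.9) to 6.36 (3.02 to 10.1, −1.18 ± 0.219, adjusted p = 0.00477), as did Rgs9, a regulator of G-protein signalling, from 16.3 (11 to 21.9) to 8.46 (3.02 to 10.4, −1.02 ± 0.218, adjusted p = 0.00893), neither with overlap. Ankrd33b, Zbtb16, Kcnip3 and Zfp697 fell by 0.91 to 1.01.

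The lists were read in the same way in cortex, where 3.16% of all genes tested were higher, 3.99% lower and the median was 0.04. Of 12 medium spiny neuron markers 1 fell (Rgs9). Of 34 genes of the downward HD signature 5 fell (Gsg1l, Rgs9, Lrrk2, Ryr1 and Grm4) and 1 rose (Itpr1), and none of 4 genes of the upward one passed. Of 17 glutamate receptors 2 rose, among them Grin2b (1.15 ± 0.305, adjusted p = 0.0247), and 2 fell (Grm4 and Gria3). Of 18 voltage-gated channels 2 fell, the calcium-activated potassium channel Kcnma1 (−0.42 ± 0.106, adjusted p = 0.0205) and Kcnh1 (−0.54 ± 0.149, adjusted p = 0.0269). None of 25 synaptic adhesion genes, 6 TDP-43 splicing targets, 3 genes with detained introns or 6 cortical excitatory, 2 GABA interneuron, 2 astrocyte, 1 oligodendrocyte and 1 vascular genes passed.

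Of 1470 genes tested in both regions, 53 passed in both, which is 19.7% of the striatal and 46.5% of the cortical calls among them. The labels do not say whether cortex and striatum libraries came from the same mice, so calls in both regions may share animals. Of these 53 genes, 29 were higher and 23 lower in both, and 1, Pex5l, rose in striatum and fell in cortex. The genotype effect itself differed between regions for 22 of 1784 genes (1.23%, limma contrast over all 32 libraries). Garnl3 had the lowest adjusted p: its change was 1.59 in striatum and −0.25 in cortex, where it did not pass, and the difference was 1.84 ± 0.282 (adjusted p = 0.000124). For Pde10a the changes were −1.20 and −0.18 (difference −1.04 ± 0.172, adjusted p = 0.000293), and for Dlgap1 1.15 and −0.30 (difference 1.44 ± 0.304, adjusted p = 0.00642). No gene passed for a difference of the genotype effect between the sexes (limma). At an unadjusted p under 0.05 there were 93 in striatum and 106 in cortex.

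To ask whether introns moved apart from exons of the same gene, the log2 ratio of intronic to exonic listed clusters, with 1 added to each and centred on the library's median, was compared. In striatum 111 of 1663 genes passed (6.67%), 42 towards introns (2.53%) and 69 towards exons (4.15%), with 10 that did not overlap (0.601%). Ppp2r2c (1.70 ± 0.366, adjusted p = 0.00762), Garnl3 (1.33 ± 0.26, adjusted p = 0.00435), the zinc-binding phosphoesterase gene Mpped2 (1.52 ± 0.252, adjusted p = 0.00141) and the calcium handling genes Itpr1 (1.92 ± 0.440, adjusted p = 0.0103), Atp2b2 and Ppp3ca moved towards introns. Impact (−1.70 ± 0.268, adjusted p = 0.00141), Gsg1l (−1.69 ± 0.325, adjusted p = 0.00405), Pbdc1, Kcnip3 (−1.34 ± 0.224, adjusted p = 0.00141, no overlap), the thyroid hormone receptor Thra (−1.27 ± 0.25, adjusted p = 0.00436) and Zfp467 moved towards exons. Pde10a moved by −0.67 ± 0.164 (adjusted p = 0.0154), from centred log2 ratios of at least 2.13 in every NT library to at most 2.08 in every R6/2 library, and Shank3 by −1.27 ± 0.257 (adjusted p = 0.00485, no overlap). The count was 72 without R6/2 female 2, 73 without R6/2 female 3, 63 without R6/2 male 4, and 0 without the 5 libraries with the high intronic share, though the 78 calls that could be tested all had the same sign.

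In cortex the ratio passed for 13 of 1749 genes (0.743%), 8 towards introns (0.457%) and 5 towards exons (0.286%), and 6 did not overlap (0.343%). Tcf20 led again: its centred log2 ratio lay between −3.39 and −1.36 in NT and between −0.58 and 0.29 in R6/2 (2.32 ± 0.275, limma adjusted p = 4.06e-05). Atp2b2, a plasma membrane calcium pump, rose in cortex (1.29 ± 0.274, adjusted p = 0.0286) as it had in striatum (1.51 ± 0.375, adjusted p = 0.0178). Dync1i1 and the SNARE gene Vti1a also rose, and Unc79, a subunit of the NALCN channel complex (−0.85 ± 0.150, adjusted p = 0.00982, no overlap), and Slc35f3 fell. The count rested on single libraries. It was 5 without NT female 2, 7 without NT male 1, 26 without NT male 2, 2 without NT male 4, 3, 8 and 4 without R6/2 females 1, 2 and 4, and 2 without R6/2 male 1 or male 2.

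Enriched intronic clusters were numerous enough to be tested in few genes. In both regions genes were kept by a mean of at least 1 over both genotypes, so a gene could enter through 1 genotype alone. In striatum 7 of 96 passed (7.29%), 3 higher (3.12%) and 4 lower (4.17%), and none was free of overlap (0%). The zinc finger gene Zfp692 went from 0 to 0.79 normalized enriched clusters in NT (median 0) to 0 to 4.15 in R6/2 (median 2.74, 2.02 ± 0.463 with 0.5 added, limma adjusted p = 0.0114), and Sltm and Nfasc also rose. Prkcb fell from a median of 14.6 (11.4 to 22.2) to 9.46 (8.09 to 14.2, −0.58 ± 0.151, adjusted p = 0.0266), and Clstn2 and the potassium channel Kcnj11 fell as well. Pdp1, the phosphatase of pyruvate dehydrogenase, had a median of 1.86 in NT and 0 in all 8 R6/2 libraries (adjusted p = 0.0114). Zfp692 entered the test through the R6/2 libraries and Pdp1 through the NT libraries, so their changes are descriptions. Of the known splicing targets of TDP-43, 3 were tested here: Nfasc rose, Pdp1 fell and Kcnip2 did not pass (0.49). The count was 0 without NT female 1 or NT female 2, 13 without NT male 1, 4 without NT male 3, R6/2 female 1 or R6/2 female 2, and 3 without NT female 4 or R6/2 female 3. The count was also 0 at the p and fold thresholds of the study, which add a log2 fold of at least 3. The study also required peaks to be reproducible between male and female samples, a step not applied here.

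In cortex 10 of 122 passed (8.2%), 1 higher (0.82%) and 9 lower (7.38%), of which 2 did not overlap (1.64%). Nos1ap, the adaptor of neuronal nitric oxide synthase, had 12.3 to 22.4 normalized enriched clusters in NT (median 16.7) and 2.14 to 7.73 in R6/2 (median 5.64), without overlap (−1.58 ± 0.192, limma adjusted p = 1.08e-05). For Nos1ap, as for Prkcb in striatum, the counts may include RefSeq exons, as given above. Lrrc4c, a synaptic adhesion gene, had 4.11 to 7.85 (median 4.83) and 0 to 3.80 (median 2.72), also without overlap (−1.49 ± 0.433, adjusted p = 0.0359). Purg went from a median of 3.95 to 0.97 (−2.15 ± 0.382, adjusted p = 0.00113), and the channel gene Kcnc1 (median 2.32 to 0, −1.97 ± 0.410, adjusted p = 0.00378), Tmem151a, the calmodulin gene Calm2, Asph and Ryr1 fell as well. Rbbp6, a ubiquitin ligase, was the 1 gene that rose (0.67 ± 0.183, adjusted p = 0.0326). The count was 5 without NT female 1, NT female 4, NT male 1, NT male 4 or R6/2 male 2 and 6 without NT male 2, R6/2 female 4 or R6/2 male 1.

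A site was called recurrent where enriched clusters from 4 or more of the 16 libraries of a region overlapped. Introns under 100 kb held 302 such sites in 204 genes in striatum, of 18561 in all, and 492 in 265 genes in cortex, of 37173. Of these, 44.0% in striatum and 33.1% in cortex lay within 200 bases of a splice site, and RefSeq placed an exon at 35.4% and 43.9%. No site of any class passed after adjustment in either region (0%). The smallest p of this exact permutation test is 0.000408, so with this many sites none could pass unless many reached that p together. The absence of calls therefore does not show that no site changed. At an unadjusted p under 0.05 there were 30 intronic sites in striatum, 13 enriched in more R6/2 and 17 in more NT libraries, and 40 in cortex, 3 and 37. Among exonic sites there were 1072 of 18200 in striatum, 270 and 802, and 1529 of 36551 in cortex, 126 and 1403, so exonic sites too were more often enriched in more NT libraries.

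A single intronic site was enriched in every NT library and in no R6/2 library of both regions. It lay in intron 30 of 38 of Rims1, which encodes a scaffold of the presynaptic active zone, at chr1:22390534-22390625 in striatum, and was picked out after its values were seen. Its window held no UGUGU.

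Rims1, chr1:22390530-22390630 (-): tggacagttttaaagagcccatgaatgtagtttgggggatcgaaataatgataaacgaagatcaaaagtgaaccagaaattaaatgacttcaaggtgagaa

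The site was still listed as a cluster in 8 of 8 R6/2 libraries of cortex and 7 of 8 of striatum, at a lower fold. The log2 fold in cortex was 2.65 to 3.90 in NT (median 3.34) and 0.21 to 3.27 in R6/2 (median 2.11), and in striatum 2.18 to 4.77 (median 3.94) and 0.21 to 2.03 (median 1.88). The exact permutation p was 0.000408 in each region, the smallest possible. Neither passed after adjustment over all sites (adjusted p = 0.473 in striatum and 0.593 in cortex), which a single site at that p cannot do. Other sites were less complete. In cortex, 3 sites in intron 10 of 13 of Nos1ap, which is 2858 bases long and overlaps a RefSeq exon, were enriched in 8 NT and 1 R6/2 libraries (exact permutation p = 0.00204, adjusted p = 0.593). In striatum the Pdp1 site was enriched in 7 NT and 0 R6/2 libraries and that of Zfp664 in 0 and 7 (exact permutation p = 0.00204, adjusted p = 0.473).

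The regions were compared in NT mice, where no transgene is present. Of 1241 genes tested, 371 passed (29.9%), 212 higher in cortex (17.1%) and 159 higher in striatum (12.8%), and 110 did not overlap (8.86%). Scaling by all listed clusters put the median of all genes at 0.33 and kept the sign of all 371. Car10 (cortex minus striatum 3.32 ± 0.321, limma adjusted p = 1.28e-08) had 12.5 to 29.1 normalized intronic clusters in cortex (median 16) and 0 to 2.99 in striatum (median 1.07). Galnt9, Adcy2, Oxr1, Pde1a and the calcium sensor Ncald were higher in cortex by 2.52 to 3.26. The retinoic acid receptor Rarb was the most striatal, with 13.8 to 30.3 in striatum (median 20.7) and 0 to 3.82 in cortex (median 1.66, −3.24 ± 0.322, adjusted p = 1.99e-08). Kcnab1, Dgkb, Pde7b and Pde10a were lower in cortex by 2.03 to 2.53 without overlap, and Gnal, the alpha subunit of the striatal G protein Golf, by 1.90 with overlap.

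Of 12 medium spiny neuron markers tested, 9 were lower in cortex and 1, Arpp21, higher (median −1.60, against 0.08 over all genes), and of 34 genes of the downward HD signature 15 were lower and 1 higher. Of 24 synaptic adhesion genes 9 were higher and 2 lower in cortex (median 0.24), where 17.1% and 12.8% of all genes tested were. Dlgap1 had 70.6 to 102 normalized intronic clusters in cortex (median 84.4) and 4.61 to 31.7 in striatum (median 18.5, 2.47 ± 0.251, adjusted p = 2.54e-08), without overlap. Of 17 voltage-gated channels 5 were higher in cortex, led by Kcnc2 (2.19 ± 0.252, adjusted p = 1.96e-07), and 3 lower. Of 16 glutamate receptors 1 was higher (Grin2a) and 5 lower, led by Grm4 (−1.71 ± 0.218, adjusted p = 9.58e-07). Of the few other markers tested, Cux2 was higher and Camk2a lower among 4 of cortical excitatory neurons, Kcnc2 was higher and Reln and Kcnc1 lower among 3 of GABA interneurons, Slc1a3 was higher and Slc4a4 lower among 2 of astrocytes, Kcnip2 was lower among 5 splicing targets of TDP-43, Runx2 was higher among 2 of the upward HD signature, and neither the 2 genes with detained introns nor the oligodendrocyte gene passed.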

How the data were processed

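TDP-43 eCLIP libraries of cortex and striatum of R6/2 and NT mice (8 per group) were used, and the m6A lists only to count overlap. Each list gives, as deposited, a −log10 p and a log2 fold, which the authors' vendor pipeline computed from IP and input reads, with the first capped at 400. The authors called clusters per library with CLIPper on mm10, per the labels and the methods. The lists hold no reads, so depth is unknown and its precision cannot be given. Clusters were used to count and select, with between 133185 and 260687 per library on the main chromosomes (21 to 52 clusters per library on scaffolds were left out). Clusters were assigned with GENCODE vM21 and sequence was read from GRCm38. Genes needed a mean of at least 5 intronic clusters, or 1 enriched cluster, over the libraries compared. limma 3.58.1 (lmFit and eBayes with trend, sex as covariate, Benjamini-Hochberg, two-sided, adjusted p under 0.05) ran in R 4.3.3, the rest in Python 3.11.15 with numpy 2.4.6, pandas 2.3.3 and matplotlib 3.10.9. Library values were tested by exact permutation within sex. Both procedures were tested on simulated data, the test of sites with fewer sites than were tested here. Cortex and striatum libraries were treated as separate samples, since the labels do not say whether they share mice. If they do, tests across regions leave that out.

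Named genes are, per test, the 6 strongest rises and 6 strongest falls of called genes. These needed the same sign in both sexes and a mean of at least 10 intronic clusters (1 for enriched). Up to 3 genes of each list with the lowest adjusted p and the 6 genes with most clusters in NT mice were also named. So were 8 sites enriched in all 32 libraries, 1 per gene and none from chromosome 18. More genes tied at 32 libraries, and these 8 are the first in chromosome order. Of these 8, the windows of Actr3 and Prkcb, at whose midpoints RefSeq places an exon, are not printed. Those of Cdk8 and Peak1, which have no such exon, are not printed either. The second set of windows was taken from 40 stretches, listed in all libraries and enriched in none, with the longest UG runs, of which 34 had a window found once in the genome. Ctnnd2, with a longer UG run than those printed and a RefSeq exon at its midpoint, was left out of the print. Others were named after their values were seen. Values of some genes that meet the rule are not reported here. The members, lists and tests were chosen with earlier results of these data known. Alternatives were other scalings, filters, added numbers, enrichment thresholds and windows, each sex alone, a replicate block and leaving out each library.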

Additional observations from a re-analysis of the deposited data

Results flagged for a closer look

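Groups of 4 mice of 1 sex were checked for the named genes and for the library shares. Of 128 such groups, 3 held a library that stood apart from the other 3, where chance gives about 1 in 20. All 3 were groups of named genes. Striatum NT female 1 had 47.0 normalized intronic clusters in Impact, against 17.2 to 22.0 in the other NT females. Striatum NT male 1 had 24.3 in Itpr1, against 1.53 to 3.25, and this library alone makes the genotypes overlap there. Striatum R6/2 female 3 had 8.21 in Kcnip3, against 5.18 to 5.26.

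The R6/2 effect on intronic clusters differed between the regions for 22 genes (limma contrast, striatum minus cortex, log2). It was higher in striatum for 18, among them Garnl3 (1.84), Brinp3 (2.42), Csmd2 (0.90), Dlgap1 (1.44), Galnt9 (2.09), Pex5l (1.43), Apex2 (1.87), Bcl11a (1.23), Frmd4a (0.86), Ncald (1.46), Astn1 (1.13), Schip1 (1.12), Arpp21 (1.29), Nlk (1.45), Plxna4 (1.79), Mast4 (0.92) and Nrcam (0.85). It was lower in striatum for 4: Pde10a (−1.04), Phactr1 (−0.80), Osbp2 (−0.95) and Shb (−1.46).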

How the results depend on the processing

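Over all 18 main comparisons, 55 of 86 values under an alternative kept their direction and side of the threshold or stayed within 1.5 times the count, beside those that leave out a library. The intronic share of striatum differed by 4.30 points in males alone, 12.4 in females alone and 8.35 with the replicate block, none past the threshold. The enriched share of striatum passed at p of 1e-10 or less (−0.278). UGUGU in striatum reversed to 2.27 points in enriched clusters alone, and the intronic share of the regions reversed to −3.47 points in R6/2 mice. In cortex the enriched share was lost in males (−0.612), females (−1.07) and the block (−0.842), and UGUGU in males (−5.68), females (−3.58), the block (−4.63) and enriched clusters alone (−2.49), in designs whose smallest p is 0.0286 for 1 sex and 0.0078 for the block. Genes passing in striatum numbered 7 in males, 186 in females, 197 with a mean of at least 10, 739 with total scaling and 10 without the 5 high libraries. For the ratio they numbered 0 in males, 180 with 4 added and 0 without the 5 libraries, and for enriched clusters 0 at the study's thresholds. In cortex they numbered 2 in males and 2 in females, for the ratio 0, 1 and, with a mean of at least 2, 1, and for enriched clusters 2 at the study's thresholds, 19 with a mean of at least 0.5 and 5 with the block. Between regions 229 passed with a mean of at least 10. The cause was not tested in any of these, except that fewer samples were used in the fits of 1 sex.

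Leaving out 1 library gave 7.08 to 9.64 points for the intronic share of striatum, 2.47 to 3.62 for that of cortex and 1.28 to 2.24 between regions, −0.937 to −0.634 and −0.957 to −0.719 for the enriched share of striatum and cortex, −3.87 to −2.64 and −5.07 to −3.84 for UGUGU, and −3.53 to −1.57 and 0.118 to 0.861 for the splice-site share. Genes passing numbered 206 to 341 in striatum, 71 to 116 in cortex and 329 to 378 between regions, for the ratio 63 to 157 and 2 to 26, and for enriched clusters 0 to 13 and 5 to 13. No site passed in any, in a test that a single site cannot pass after adjustment. Same-numbered NT and R6/2 mice had low correlations (−0.19 to 0.13 in cortex and −0.08 to 0.11 in striatum). Still, 4 of 8 NT libraries in cortex and 6 of 8 in striatum correlated best with their own number. Each was set against 4 libraries of its sex, where chance gives 1 in 4. Between regions 5 of 8 cortex libraries did so in NT (−0.03 to 0.15) and 0 of 8 in R6/2 (−0.06 to 0.04). Whether the numbers mark a shared batch or mouse was not tested. Lists without reads cannot show whether a cluster missing from a library was absent or below the reach of its depth.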

Other observations

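Genes were split into 4 classes of like size by the total length of their introns under 100 kb. In striatum the median log2 change of intronic clusters was −0.14, 0.10, 0.31 and 0.32 from the shortest to the longest class, with 14, 30, 51 and 92 genes that rose and 56, 26, 16 and 22 that fell. In cortex it was −0.07, 0.06, 0.09 and 0.08. These classes were not tested against each other.

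Sites of N6-methyladenosine (m6A), an RNA mark, were listed by eCLIP in the same regions. An m6A cluster of at least 4 libraries lay on 30.8% of the intronic TDP-43 sites of striatum and 30.1% of those of cortex, against 59.2% and 53.6% of exonic sites. Counting only m6A clusters enriched over input, the shares were 11.9% and 7.11% for introns and 23.8% and 22.1% for exons.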
